A study of Rattus norvegicus with 20 samples.

Results

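Of 13556 array regions, 258 were methylated in normal rat mammary gland and lower in mammary carcinomas. They were chosen by their measured position, a scale that sets the main density peak of an array's regions to 0 and the density peak of its highest 15% to 1, on the unlogged ratio of methylated to input DNA. A member was an autosomal region with a mean position over 0.5 in normal glands and a carcinoma mean at least 0.1 below the normal mean. There were 1408 autosomal regions with a normal mean over 0.5, called upper regions here, and the members were 18.3% of them. The remaining 1150 upper regions served for comparison. Because the fall itself chose the members, its size is given as a description with no test.

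The samples were 16 mammary carcinomas, which the series title calls radiation-induced, and 4 normal mammary glands, all from female F1 hybrids of Sprague-Dawley and Copenhagen rats. The treatments named for the series are no treatment and whole-body gamma irradiation from 137Cs with 4 Gy at 0.5 Gy per minute, given when the rats were 7 weeks old. Which of these the normal glands received is not given, so tumour state and irradiation cannot be told apart. Each sample had 1 array, on which DNA captured by a methyl-CpG-binding domain was labelled with Cy5 and total DNA of that sample, the input, with Cy3. The samples are numbered without naming animals, so any spread is that between samples. The identity of carcinomas 7 and 8 is uncertain, as their descriptions and their scanner files carry different codes. The cell makeup of the tissues is not given, and fewer methylated cells cannot be told apart from less methylation per cell. No value of the arrays checks the tissue labels, since the files name no genes.

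CpG islands are stretches of DNA dense in CpG dinucleotides, many of them at promoters, and most are free of methylation in normal tissues. The methylated minority includes islands within gene bodies, islands of germline genes and islands under parental imprinting. A methyl-CpG-binding domain binds methylated CpG and retains more DNA where methylated CpGs are dense, so its signal reflects both methylation and CpG density. Tumours are known for loss of methylation over much of the genome together with gains at some islands.

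The range of the arrays differed between the groups. By barcode no slide held arrays of both groups, so slide and tumour state cannot be told apart. The high peak lay at a log2 ratio of 2.72 ± 0.49 in carcinomas (SD, n = 16) and 4.68 ± 0.82 in normal glands (SD, n = 4). Raw median Cy5 intensities were 63 to 130 units in carcinomas and 63 to 97 in normal glands. Raw median Cy3 intensities were 74 to 131 in carcinomas and 105 to 138 in normal glands. Cy5 signal was well above background for 96.1% to 100% of the members' probes on carcinoma arrays and for 100% on normal arrays. Among normal glands, number 1 had the widest range, with its high peak at 5.84, and number 4 was the highest in many of the deepest falls, as given below. Position rescales each array to its own peaks, and the part of the differing ranges in the falls was not tested.

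Most members stayed in the upper part of the range in carcinomas. The carcinoma mean of a member had a median of 1.08 and ran between 0.113 and 1.62, whereas the normal mean had a median of 1.25 and ran between 0.506 and 1.87. The difference, carcinoma minus normal, had a median of −0.168 and ranged between −0.723 and −0.1002. Of the 258 members, 162 still had a carcinoma mean over 1, and 61 had one between 0.5 and 1. A carcinoma mean between 0.2 and 0.5 was found in 30 members, and one under 0.2 in 5. Every one of the 16 carcinomas stayed over 0.5 in 182 members, of which 180 had a normal mean over 1. The label of falling islands therefore covers mostly regions that moved within the upper part of the range.

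**Figure D1:**
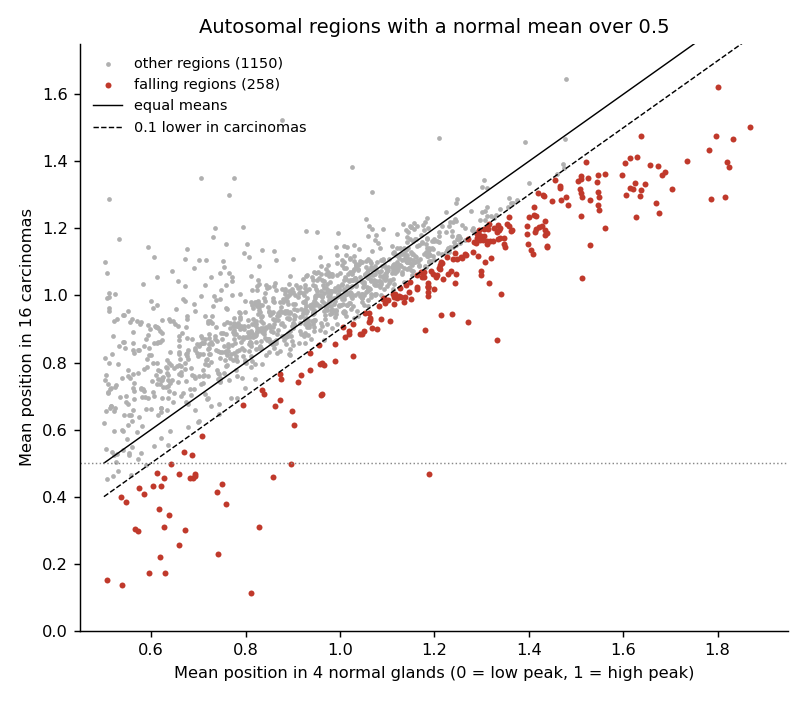
Mean position in 16 carcinomas (vertical axis) against mean position in 4 normal glands (horizontal axis) for the 258 falling regions (red) and the other 1150 upper regions (grey), with lines for equal means, for a difference of −0.1 and for a carcinoma mean of 0.5. Most red points lie between 0.5 and 1.62 on the vertical axis, and 35 lie under 0.5.

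Shallow falls made up the bulk of the set. A difference between −0.2 and −0.1 was found in 160 members, one between −0.3 and −0.2 in 55, and one between −0.4 and −0.3 in 26. There were 12 members between −0.5 and −0.4 and 5 beyond −0.5. Most members came from the top of the normal range: 200 had a normal mean over 1 (77.5%), against 378 of the other 1150 upper regions (32.9%). A normal mean over 1.5 was found in 50 members and in 0 of the other upper regions. The rule used the normal mean, and a fixed fall of 0.1 is a smaller share of a high mean. Nothing is read from this contrast, which the rule favours.

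All 16 carcinomas lay below every normal gland in 51 members, and at least 8 carcinomas did so in 233. Over all regions, full separation was found in 2.15% and separation of at least 8 carcinomas in 29.7%, beside 0 and 9.74% of the other upper regions. Further, in position limma 3.58.1 called 161 members lower at an adjusted p under 0.05, against 4.35% of all regions. On the centred log2 ratio, all 258 members were fully separated, against 15.6% of all regions, and all 258 were called lower, against 23.7%. Nothing is read from these counts, since the rule used the same contrast.

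The centred log2 ratio keeps the differing ranges of the arrays, which position rescales. Members had a median log2 difference of −2.20, ranging between −4.02 and −2.09, while the other upper regions had a median of −1.89 and all regions a median of 0.02. Set against the median of the upper regions, −1.94, members were lower by a median of 0.31 on the log2 scale. Of the members, 40 were at least 0.5 lower than that median and 11 at least 1 lower, against 0 and 0 of the other upper regions. The log2 shift of the upper regions was thus several times the distance that set a typical member apart. The high peak was also lower in carcinomas, at 2.72 against 4.68 in normal glands. In position, the other upper regions had a median difference of 0.0439, carcinoma minus normal. Whether the log2 shift of the upper regions reflects methylation was not tested.

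Position averaged over the 258 members was 1.01 ± 0.0635 in carcinomas (SD, n = 16) and 1.21 ± 0.0384 in normal glands (SD, n = 4). The lowest carcinoma was number 4 at 0.908, the median carcinoma was at 1.00 and the highest was number 5 at 1.12. The normal glands numbered 1 to 4 had 1.25, 1.17, 1.19 and 1.24. The arrays of the groups did not overlap in this mean, a separation that the choice of members sets. Over the other upper regions the order was turned, with 0.961 ± 0.0362 in carcinomas (SD, n = 16) and 0.891 ± 0.0269 in normal glands (SD, n = 4). Members therefore exceeded the other upper regions by 0.0451 ± 0.0373 within carcinoma arrays (SD, n = 16) and by 0.323 ± 0.0625 within normal arrays (SD, n = 4).

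**Figure D2:**
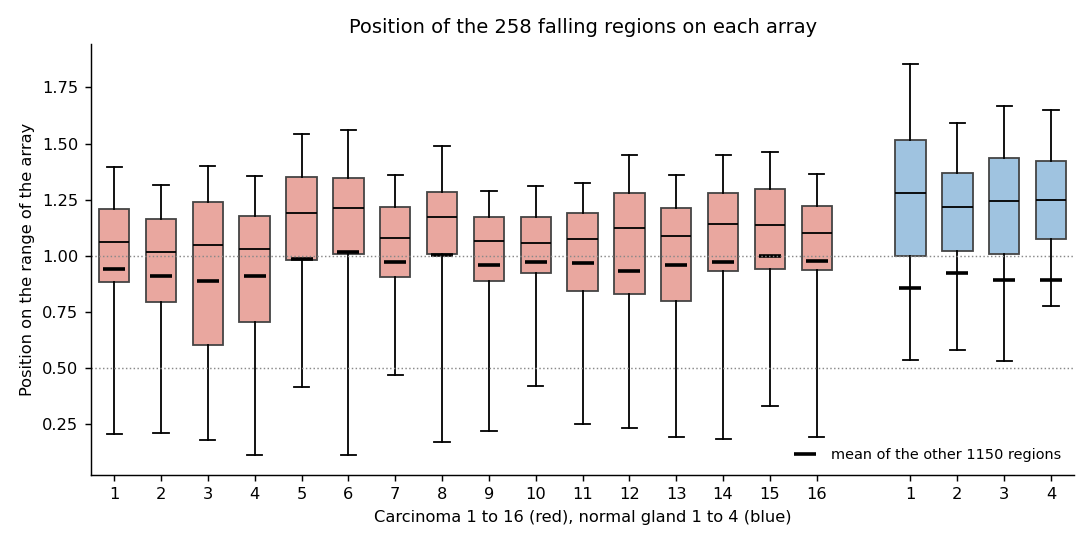
Position of the 258 falling regions on each of 16 carcinoma arrays (red, left) and 4 normal arrays (blue, right), as boxes of the quartiles with the median and whiskers from the 5th to the 95th percentile, and a black bar for the mean of the other 1150 upper regions. The boxes of the carcinomas sit lower, and their lower whiskers reach further down than those of the normal glands.

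Ranks do not use the peaks, but they come from the same ratios, so their direction was largely set by the choice of members. Among the 1408 upper regions of an array, the median rank of the members, from 0 for the lowest to 100 for the highest, averaged 72.6 ± 5.65 in carcinomas (SD, n = 16) and 87.2 ± 0.302 in normal glands (SD, n = 4). It ran between 63.3 and 81.1 over carcinomas and between 86.8 and 87.5 over normal glands. By mean rank, 243 members stood lower in carcinomas, 147 of them by over 10 points and 43 by over 25 points. Of the other 1150 upper regions, 542 stood lower in carcinomas, 151 by over 10 points and 1 by over 25 points.

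The plot of positions by array also shows that carcinomas differed in how many members had dropped. A carcinoma had between 18 and 58 members under 0.5, with a median of 31, whereas the normal glands had between 0 and 11. Under 0.2, carcinomas had between 0 and 24 members and normal glands had 0. Carcinoma 3 had the most members under 0.5, with 58, followed by carcinoma 4 with 48. Carcinomas 3, 4 and 2 were the lowest of the 16 in 41, 39 and 37 members, while carcinomas 5 and 14 were lowest in 2 each. Between 135 and 196 members were over 1 in a carcinoma, against 194 to 213 in a normal gland.

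A deep subset of 35 members had a carcinoma mean under 0.5. Its median carcinoma mean was 0.400 and its median normal mean 0.638, with a median difference of −0.292 in position and −2.73 on the log2 scale. In 34 of these the normal mean was at most 1, so the deepest levels in carcinomas were mainly in members with lower normal means. As only 5 members fell beyond 0.5, few members with a normal mean over 1 could end under 0.5. The whole group of 58 members with a normal mean at most 1 had a median carcinoma mean of 0.464 and a median normal mean of 0.724. The 200 members with a normal mean over 1 had medians of 1.16 in carcinomas and 1.32 in normal glands, with a similar median fall of 0.163 against 0.193 for the 58.

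Averaged over the 35 deep members, carcinomas lay between 0.271 and 0.561 with a median of 0.313. Normal glands 1, 2 and 3 had 0.590, 0.640 and 0.587, and normal gland 4 had 0.878. Carcinomas 5, 7, 10 and 15 were the highest, at 0.513, 0.524, 0.475 and 0.561, and no other carcinoma exceeded 0.349. Carcinomas 5 and 7 had 0 of the 35 under 0.2, while carcinomas 4 and 6 had 20 each. Over the other 223 members, the same 16 carcinomas lay between 1.00 and 1.23 and the normal glands between 1.25 and 1.35, so normal gland 4, at 1.30, stood apart in the deep members and not in the rest.

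Normal gland 4 had the highest normal value in 30 of the 35 deep members. Without it, the median difference of the 35 was −0.223, all 35 remained lower in carcinomas, and 26 still met the rule. Of all 258 members, 257 were lower and 224 met the rule without it. Leaving out normal gland 1, the highest normal gland in 109 members, kept 258 lower and 231 within the rule. The part of normal gland 4 in the depth of these falls was not tested beyond these values.

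The largest fall lay at chr3:147120104-147120567 in build rn4, a region of 6 probes, where all 6 probes were lower in carcinomas. Carcinomas had a lowest position of 0.158, a median of 0.446 and a highest of 0.789, whereas normal glands 1 to 4 had 1.15, 1.08, 1.04 and 1.49. The difference was −0.723, and −0.624 without normal gland 4. The groups were fully apart, and the region held rank 4.93 of 100 in carcinomas against 77.0 in normal glands. No other member dropped by so many ranks, 72.1. It was the only deep member with a normal mean over 1.

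Second came chr2:175940970-175941737, with 10 probes, all lower. Carcinomas ran from −0.0269 through a median of 0.0760 to 0.301, and the normal glands had 0.731, 0.652, 0.776 and 1.08. This region had the largest log2 difference of all 13556 regions, −4.02, with means of 0.34 ± 0.58 in carcinomas (SD, n = 16) and 4.37 ± 0.85 in normal glands (SD, n = 4). Of the 16 carcinomas, 12 were under 0.2 and none was over 0.5, so most tumours were near the low peak in position here. On the log2 ratio the carcinoma mean of 0.34 lay further above the low peak, which was at −0.44 ± 0.14 in carcinomas (SD, n = 16). Carcinomas 5 and 10 were the highest, at 0.301 and 0.296.

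Other regions were also near the low peak in position in most tumours. At chr18:71365517-71366000, carcinomas ran from 0.0400 through a median of 0.132 to 0.436, and the normal glands had 0.530, 0.554, 0.568 and 0.866. At chr7:114746998-114747515, carcinomas ran from 0.0325 through 0.0820 to 0.388, and the normal glands had 0.514, 0.447, 0.433 and 0.758. In both, 12 carcinomas were under 0.2, none was over 0.5, and every carcinoma lay below every normal gland. A further region with 12 carcinomas under 0.2 and none over 0.5 was chr4:154473839-154474254, chosen after its values were seen. There carcinomas ran from 0.0388 through 0.118 to 0.436, and the normal glands had 0.355, 0.518, 0.457 and 0.694. Carcinoma 15, the highest, overlapped normal gland 1 in this region. At chr20:19290912-19291405, 13 carcinomas were under 0.2 and carcinoma 7 reached 0.610, against 0.478, 0.606, 0.583 and 0.712 in the normal glands. These 5 regions, with chr2:175940970-175941737 among them, were the members with a carcinoma mean under 0.2.

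In another kind, the tumours were split. At chr1:95950255-95950677, 8 carcinomas were under 0.2 and 2 were over 0.5, with a lowest of 0.0296, a median of 0.177 and a highest of 0.589, whereas the normal glands had 0.622, 0.628, 0.659 and 1.05. At chr6:136199857-136200515, carcinomas had a lowest of 0.110, a median of 0.239 and a highest of 1.04, against 0.760, 0.686, 0.661 and 1.205 in normal glands. Here carcinoma 7 alone lay within the normal values, and the other 15 lay below them. The difference at chr6:136199857-136200515 was −0.519, and −0.393 without normal gland 4.

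At chr17:77594678-77595060, carcinomas had a lowest of 0.0328, a median of 0.238 and a highest of 0.779, against 0.616, 0.556, 0.537 and 0.926 in normal glands. There 7 carcinomas were under 0.2 and 2 were over 0.5, with carcinoma 1 the highest. At chr9:8528821-8529154, 11 carcinomas were under 0.2, while carcinoma 6 had 0.770, against 0.517, 0.549, 0.426 and 0.986 in normal glands. The highest tumour was thus a different one in each of the chromosome 6, 9 and 17 regions. The fall at chr9:8528821-8529154 was −0.400 with all normal glands and −0.278 without number 4.

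Wider spreads were seen at chr8:109098690-109099028 and chr11:32718299-32718711. At chr8:109098690-109099028, carcinomas had a lowest of 0.0584, a median of 0.521 and a highest of 0.942, against 0.700, 0.909, 0.996 and 0.983 in normal glands. At chr11:32718299-32718711, they had 0.0549, 0.398 and 0.881, against 0.745, 0.871, 0.885 and 0.934 in normal glands. In these regions 8 and 7 carcinomas stayed over 0.5, so the groups overlapped at their edges, with 12 and 13 carcinomas below every normal gland.

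**Figure D3:**
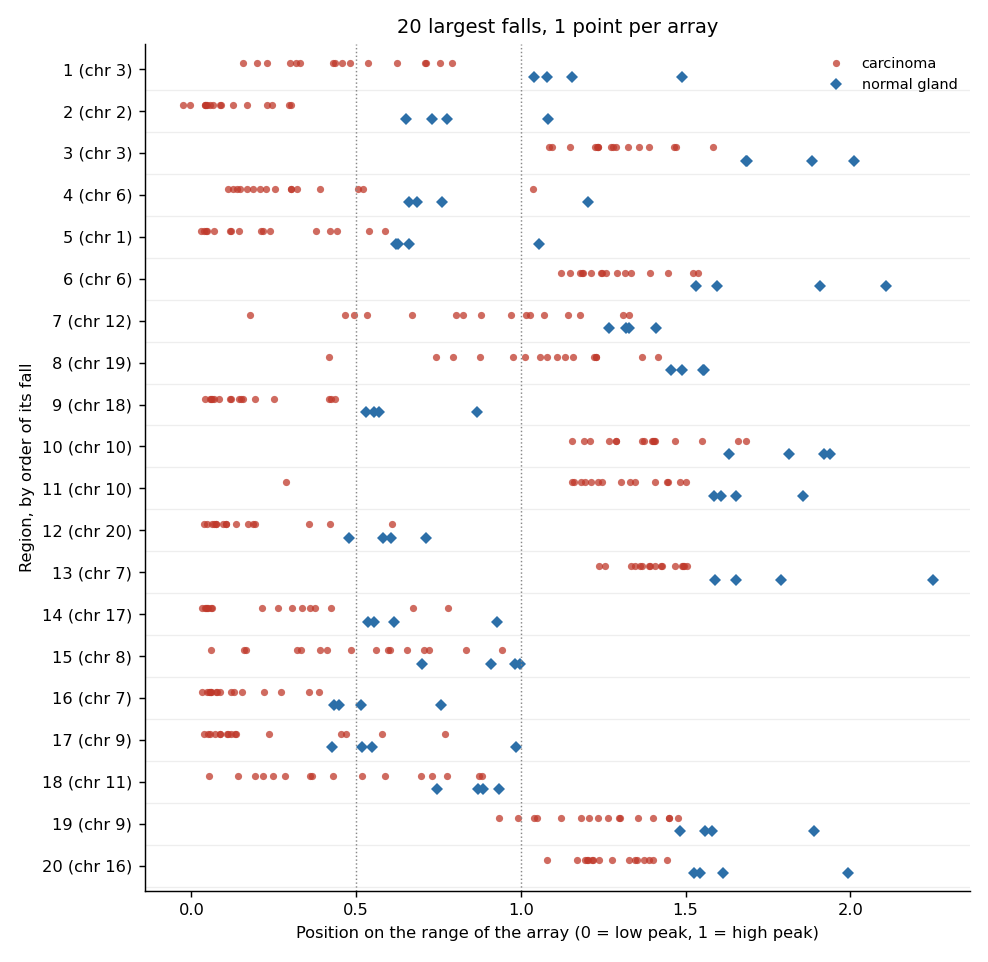
Position of the 20 regions with the largest falls, ordered from the top, with 1 point for each of 16 carcinomas (red circles) and 4 normal glands (blue diamonds) and dotted lines at 0.5 and 1. In 11 of the 20 regions every carcinoma lies left of every normal gland, and 11 have a carcinoma mean under 0.5.

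The remaining large falls stayed at the top of the range. At chr3:77249357-77249691, carcinomas had a lowest position of 1.09, a median of 1.28 and a highest of 1.58, whereas the normal glands had 2.01, 1.68, 1.88 and 1.69. At chr6:137910088-137910513, carcinomas had 1.12, 1.25 and 1.54, against 2.11, 1.59, 1.91 and 1.53 in normal glands. At chr7:11242587-11242918, carcinomas had 1.24, 1.40 and 1.504, against 2.25, 1.59, 1.65 and 1.79 in normal glands. These regions lay above the high peak in all 20 samples, and their largest value in each case was that of normal gland 1. Without that gland, the difference at chr7:11242587-11242918 was −0.278 in place of −0.421.

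The same held for chr16:9580141-9580519, with carcinomas between 1.08 and 1.44 and normal glands at 1.99, 1.52, 1.61 and 1.54. At chr10:92058976-92059339, carcinomas lay between 1.16 and 1.68 and normal glands between 1.63 and 1.94, with an overlap of 2 carcinomas. By rank, chr7:11242587-11242918 stood at 98.1 in carcinomas and 99.4 in normal glands, and chr10:92058976-92059339 at 96.6 and 99.5. The changes in rank were larger at chr3:77249357-77249691, with 91.9 in carcinomas and 99.6 in normal glands, at chr6:137910088-137910513, with 92.5 and 99.1, and at chr16:9580141-9580519, with 92.5 and 98.3.

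Single low tumours marked another pair. At chr10:105993253-105993674, carcinoma 3 had 0.286 and the others reached 1.501, with a median of 1.28, against 1.86, 1.59, 1.61 and 1.65 in normal glands. At chr19:53037131-53037562, carcinoma 3 was again the lowest at 0.418, with a median of 1.09 and a highest of 1.42, against 1.55, 1.46, 1.55 and 1.49 in normal glands. Carcinoma 3 was also the lowest at chr12:6245960-6246364, at 0.177, where the median was 0.925 and the highest 1.33, against 1.32, 1.33, 1.41 and 1.27 in normal glands. At chr12:6245960-6246364, 13 carcinomas stayed over 0.5 and 14 lay below every normal gland.

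The SD among carcinomas was larger than that among normal glands in 154 of the 258 members, and likewise in 690 of the other 1150 upper regions. In the 58 members with a normal mean at most 1, the median SD was 0.229 in carcinomas and 0.138 in normal glands, against 0.0857 in carcinomas and 0.0788 in normal glands in the 200 members above 1.

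The steadiest members were at the high peak. At chr12:34362720-34363079, carcinomas ran only between 0.975 and 1.09 and normal glands between 1.08 and 1.24. At chr20:12463384-12464059, carcinomas ran between 1.00 and 1.12 and normal glands between 1.10 and 1.28. At chr4:172723127-172723713, the ranges were 1.13 to 1.26 in carcinomas and 1.27 to 1.46 in normal glands, with no overlap. The falls in these 3 were −0.110, −0.119 and −0.143.

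The most variable members were chr7:120581954-120582430, chr1:135862510-135862899 and chr5:22709432-22709726. At chr7:120581954-120582430, carcinomas had a lowest of 0.0872, a median of 0.221 and a highest of 1.46 in carcinoma 15, against 0.565, 0.551, 0.376 and 0.806 in normal glands. At chr1:135862510-135862899, carcinomas had 0.270, 0.966 and 1.33, against 0.899, 0.966, 0.961 and 1.37 in normal glands. At chr5:22709432-22709726, they had a lowest of 0.0824 and a median of 0.969, against 1.37, 1.19, 1.16 and 1.36 in normal glands. Carcinoma 4 was the lowest in the regions on chromosomes 1 and 5. The fall at chr1:135862510-135862899 was −0.155 with all normal glands and −0.0475 without number 4. That at chr7:120581954-120582430 was −0.149 with all normal glands and −0.0723 without number 4. Both falls thus shrank by over 1.5 times without that gland.

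The threshold cut through a continuum. Just inside it were chr3:160558006-160558461, with mean positions of 0.992 in carcinomas and 1.09 in normal glands, and chr20:9133870-9134222, with 0.906 in carcinomas and 1.01 in normal glands. Just outside were chr8:115386529-115386871, with 0.939 in carcinomas and 1.04 in normal glands, and chr15:23749431-23749928, with 1.13 in carcinomas and 1.23 in normal glands. The differences of these regions, −0.1004 and −0.1002 inside and −0.0999 and −0.0998 outside, were far smaller apart than the spread between samples.

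Each region was a run of probes, which allows a look at how the fall was spread along it. Members had a median of 5.5 probes over 438 bases, close to 5 probes and 432.5 bases in the other upper regions, while all regions had a median of 6 probes and 579 bases. Of 1555 probes in members, 1349 were lower in carcinomas (86.8%), against 36.6% of 6639 probes in the other upper regions. These probes make up the region means that the rule used, so the contrast was largely set by the choice of members. Every probe was lower in 117 members. In 95 members exactly 1 probe was not lower. Probes at the edges of a member had a median difference of −0.177 and inner probes one of −0.236, and the inner fall was the larger in 161 members. No such values are at hand for the other upper regions, so nothing particular to members is read from them.

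Members were found on all 20 autosomes. Chromosome 7 held the most, 32 of its 138 upper regions (23.2%), followed by chromosome 1 with 27 of 190 (14.2%). The highest share was on chromosome 13, with 8 of 20, and the lowest on chromosome 15, with 1 of 29 (3.45%). The shares of chromosomes 13 and 15 rest on small numbers of upper regions, and all 4 are given beside the 18.3% of the whole set.

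Of the 258 members, 132 had no other member starting within 1 Mb. The other 126 fell into 47 groups, 32 of them with 2 members and 8 with 3. The group with most members, 8 of 25 upper regions, ran from 10588580 to 11485190 on chromosome 7. Its members had falls between 0.121 and 0.421 and carcinoma means between 0.532 and 1.41. In 7 of the 8, all carcinomas stayed over 0.5, and chr7:11242587-11242918, described above, had the largest fall. The 17 upper regions between them that were not members had differences between −0.0956 and 0.204, so the stretch did not move as a whole.

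On chromosome 20, 7 of 21 upper regions from 4028336 to 6357609 were members. Their carcinoma means lay between 0.498 and 1.29 and their normal means between 0.641 and 1.55. The other upper regions there had differences between −0.0975 and 0.388, again on both sides of 0. The next place was shared by 3 groups with 5 members each. These ran from 95030398 to 95950677 on chromosome 1 with 9 upper regions, from 33000695 to 34632256 on chromosome 12 with 8, and from 158463683 to 160910072 on chromosome 5 with 11.

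The chromosome 1 group joined a deep fall to shallow ones. Next to chr1:95950255-95950677, with a carcinoma mean of 0.228 and a normal mean of 0.741, chr1:95848058-95848724 had 1.04 in carcinomas and 1.24 in normal glands. All carcinomas stayed over 0.5 in the 4 members other than chr1:95950255-95950677. In the chromosome 12 group all 5 members stayed over 0.5 in every carcinoma, with falls between 0.102 and 0.218. In the chromosome 5 group the falls lay between 0.130 and 0.168, and chr5:159128878-159129270 was the only one under 1 in carcinomas on average, at 0.743 against 0.911 in normal glands.

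Neighbours could differ in level and fall by like amounts. On chromosome 9, chr9:8528821-8529154 and chr9:8573920-8574370 were both among the 20 largest falls, at −0.400 and −0.393. The first had a mean of 0.219 in carcinomas and 0.620 in normal glands. The second had 1.23 in carcinomas, between 0.934 and 1.48, and 1.63 in normal glands, between 1.48 and 1.89, with no overlap.

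The 2 channels can be read separately. The Cy5 signal of members, relative to the median of each array, had a median log2 difference of −2.18, against −1.95 in the other upper regions. The Cy3 input signal had a median log2 difference of 0.04 in members, against −0.08 in the other upper regions. The whole log2 difference of members therefore lay almost wholly in the enriched DNA, but most of it was shared with the other upper regions. Members differed from those regions in both channels, being lower in Cy5 and higher in input. Members were also somewhat brighter in input than other upper regions, with medians of 0.20 against −0.13 in carcinomas and 0.17 against −0.04 in normal glands, both log2 and relative to the array median.

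An input log2 value over 1 in normal glands was found in 6 members (2.33%), against 9 of the other upper regions (0.783%) and 208 of all regions (1.53%). The brightest input of all 13556 regions belonged to a member, chr2:186309613-186309909, chosen after its values were seen, with 4.499 in carcinomas and 3.84 in normal glands. Its position averaged 1.48 ± 0.0833 in carcinomas (SD, n = 16) and 1.80 ± 0.197 in normal glands (SD, n = 4), fully apart.

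Shifts of input signal along a chromosome were counted over the member values. Of 4128 pairs of a member and a carcinoma, 389 lay in a 5-Mb window whose input was lower than in normal glands by at least 0.25 on the log2 scale, spread over 13 carcinomas and 153 members. In these pairs the position, minus the member's carcinoma mean and the array's mean over members, had a median of −0.00557, against 0.00367 in the other pairs. Both values are centred within carcinomas, so they cannot address the difference from normal glands. The part of input shifts in the falls was not tested.

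Members were then placed on other scales, since position depends on the 2 peaks of an array. When peaks were kept and position was taken on the log2 ratio, 231 of 258 were lower in carcinomas, with a median of −0.0317. After loess within arrays 145 were lower, with a median of −0.0375, and after normexp background correction 89 were lower, with a median of 0.0782. When the peaks themselves were sought on the unlogged ratio, all 258 were lower, with a median of −0.610. Over the other 1150 upper regions these medians were 0.00936, −0.0634, 0.225 and −0.257, beside 0.0439 on the original scale. Of these 1150, in the same order, 411, 633, 34 and 1016 were lower, beside 375 on the original scale. After loess, members were thus lower about as often as other upper regions. The direction of most members held on some of the 5 scales only.

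**Figure D4:**
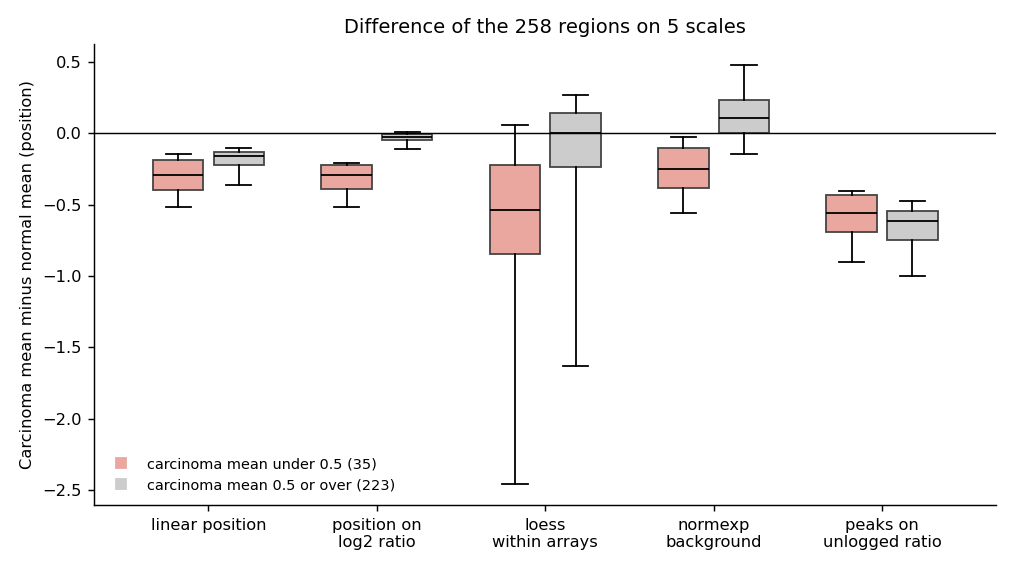
Carcinoma mean minus normal mean of the 258 regions on 5 scales, as boxes of the quartiles with medians and whiskers from the 5th to the 95th percentile, for the 35 regions with a carcinoma mean under 0.5 (red) and the other 223 (grey). The red boxes lie under 0 on all 5 scales, while the grey ones reach 0 after loess and lie mostly above it after normexp correction.

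The deep members held their direction on more scales, which their choice by a low carcinoma mean from the same ratios favoured. These counts are therefore a description. Of the other 1150 upper regions, 34 were lower after normexp, so no more than 34 could be lower on all 5 scales. Lower on all 5 scales were 73 members, comprising 32 of the 35 with a carcinoma mean under 0.5 and 41 of the other 223. By normal level, these were 48 of the 58 members at most 1 and 25 of the 200 over 1. Of the 20 largest falls 16 were lower on all 5, the exceptions being chr19:53037131-53037562, chr10:92058976-92059339, chr7:11242587-11242918 and chr16:9580141-9580519, all with normal means over 1.5. The full rule was met on all 5 scales by 26 members, 22 of them among the 35. In the order given above, 35, 35, 32, 34 and 35 of the 35 were lower on the linear, log2, loess, normexp and unlogged-peak scales.

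Carcinomas were set side by side to see what moved with the members' mean position, given as a description over 16 tumours with no p, since the members were chosen with results known. It moved with the mean of the other upper regions (Pearson's r = 0.860, Spearman's rho = 0.879), which share the array and its peaks. Without carcinomas 3 and 4, the farthest from the median of the other upper regions, r was 0.812. It was 0.847 over the 6 carcinomas of scan day 2 and 0.892 over the 8 of scan day 3. Arrays with low members were thus also arrays with low upper regions in general.

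Gains were counted as the share of autosomal regions under 0.2 in every normal gland that exceeded 0.5 in a tumour. This share ran between 0.119% and 11.0% over carcinomas, with a median of 2.77%, and was 0% in normal glands by its definition. Its r with the members' mean was 0.615 and its rho 0.753. Without carcinomas 8 and 15, which had the highest shares, r was 0.499. Within scan day 2 it was 0.299 (6 carcinomas) and within scan day 3 it was 0.863 (8 carcinomas). With each tumour left out in turn, r ran between 0.565 and 0.731. The difference between scan days was not tested. Without the 2 farthest tumours of a day, r was −0.851 within scan day 2 (carcinomas 4 and 15 left out) and 0.812 within scan day 3 (6 and 8 left out). Over all carcinomas, tumours with more gains had higher members in sign. Both quantities use the position scale of the same array and so share its peaks.

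**Figure D5:**
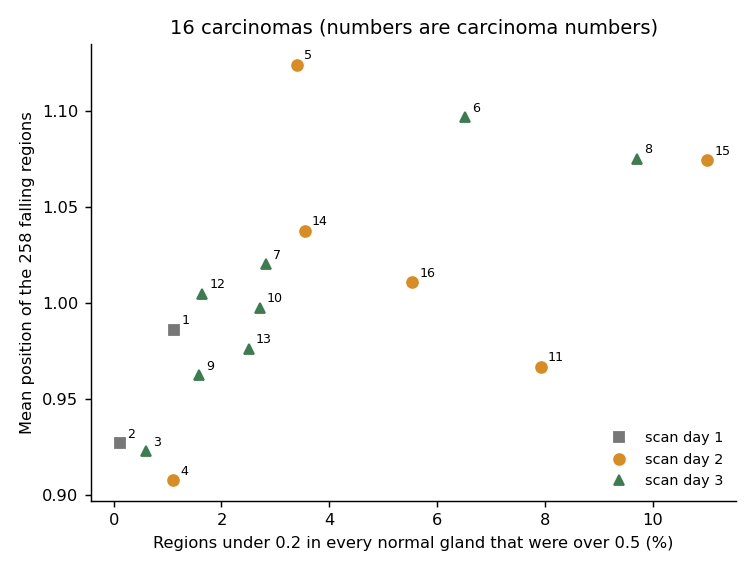
Mean position of the 258 falling regions (vertical axis) against the share of regions under 0.2 in every normal gland that were over 0.5 (horizontal axis, percent), 1 point per carcinoma with its number and its scan day by colour and shape. Carcinomas 8 and 15 lie at 9.71% and 11.0%, and the lowest members' means belong to carcinomas 4, 3 and 2, at shares up to 1.10%.

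The height of the high peak and the unevenness of input, the SD of the mean input over autosomes, showed weak relations with the members' mean, with r of −0.0837 and −0.0688 and rho of −0.0676 and 0.0882. For the high peak, r was −0.362 within scan day 2 and 0.252 within scan day 3. For input unevenness, it was −0.0303 within scan day 2 and −0.299 within scan day 3. Scan days were compared among carcinomas only. The members' mean was 1.01 ± 0.0573 on scan day 3 (SD, n = 8) and 1.02 ± 0.0770 on scan day 2 (SD, n = 6), a difference of −0.0133 that was smaller than the spread within either day. Each of these days also held 2 normal glands, while scan day 1 held 2 carcinomas only. Within a day the normal glands still lay on slides of their own, so comparisons within a day do not separate slide from tumour state. Applied within a day, the rule chose 242 regions on day 2, 167 of them members, and 311 on day 3, 227 of them members.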

How the data were processed

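Per the file headers, Agilent Feature Extraction 10.7.3.1 read the 20 two-colour CpG island arrays, whose probes have coordinates of build rn4. In the deposited files the processed signals are intensities, background-subtracted and dye-normalized by a linear factor per channel, per the file headers. Their log ratio, Cy5 over Cy3, is in log10 per the file headers. A value table of the authors holds log2 ratios of 91897 probes, equal to that log ratio to within 7.94e-07. Its column medians ran between −0.477 and −0.0835, so it was not centred. No aligner is involved, and arrays were not pooled.

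Here log2 of processed Cy5 over Cy3 was taken for 93024 probes without 1565 control spots, and 187 values marked by the scanner software were set to missing. Probes whose input was not well above background on 10 or more arrays were dropped, which left 91599, and the median of each array was then subtracted. Probes starting at most 500 bases apart formed 16436 runs, of which 13556 held at least 3 probes. The peaks were sought on the log2 ratio and then unlogged. Regions were compared over all 20 arrays with limma 3.58.1 (R 4.3.3), p-values being adjusted over all regions by the method of Benjamini and Hochberg. The script was tested on simulated data. Figures were drawn with matplotlib 3.10.9, and the remaining steps ran in Python 3.11.15 with scipy 1.17.1, pandas 2.3.3 and numpy 2.4.6.

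The members, the alternatives and the scale were chosen with earlier results of these data known. Named were the 20 largest falls, the 3 members each of lowest and highest spread among carcinomas, the 2 regions on either side of the threshold and the 3 groups with most members, ties included. Planned p-values for means over the members are not given, because the members were chosen with results known. Groups share replicate numbers 1 to 4, and the deviations of same-numbered arrays had correlations of 0.336, −0.286, 0.102 and −0.0437. Differently numbered arrays were not compared, so these values cannot show whether the numbers pair samples. The main comparison did not use them as pairs. Alternatives covered the scale, peaks, normalization, background, filters, thresholds, blocks and each array left out. The number of arrays limits the precision. No gene names or sequences are given, since the annotation at hand is of another build.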

Additional observations from a re-analysis of the deposited data

Results flagged for a closer look

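Within 42 sets of 4 normal values, a single gland stood far from the other 3 in 4 sets. Chance gives about 5% of sets that were not chosen by their values. The sets of named members were chosen partly through high normal means, so that rate does not apply to them. The low peak of normal gland 1 lay at a log2 ratio of −0.68, while the other normal glands had −0.44 to −0.41. Normal gland 4 stood high in the other 3 sets. It had a position of 1.05 at chr1:95950255-95950677, against 0.622 to 0.659 in the other glands. It had 0.866 at chr18:71365517-71366000, against 0.530 to 0.568, and 1.37 at chr1:135862510-135862899, against 0.899 to 0.966. Without normal gland 4 the falls in these regions were −0.409, −0.377 and −0.0475, beside −0.513, −0.456 and −0.155 with it.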

How the results depend on the processing

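The number of members was 1315 after loess (110 of the 258 among them), 52 after normexp (48), 1202 with peaks sought on the unlogged ratio (258), which was added after the data were seen, and 406, 161 and 98 for falls of 0.05, 0.15 and 0.2. Leaving out each array in turn gave 248 to 279. On the log2 ratio 182 regions met the rule, and only 55 of these were members. Position calls of members, 161 of 258, were 91 to 165 with each array left out, the lowest without normal gland 1, 11 within scan day 2, 72 within scan day 3 and 4 with the replicate block, while the same 8 arrays without the block gave 107. Over all 13556 regions, lower position calls were 590, and 164 to 649 with each array left out. They were 14 within scan day 2, 110 within scan day 3, 5 with the replicate block and 537 without it. Log2 calls of members were 25 lower and 33 higher after loess, and 256 to 258 lower under all other settings. Over all 13556 regions, log2 calls were 984 lower and 1469 higher after loess, and 2263 to 3528 lower under the other settings. Among carcinomas, the r with the gained share was 0.299 within scan day 2, 0.546 on the log2 position, 0.499 without the 2 farthest tumours and 0.565 to 0.731 with each tumour left out. The r with the other upper regions was 0.847 within scan day 2 and 0.834 to 0.901 with each tumour left out. The r with the high peak was −0.362 within scan day 2, 0.252 within scan day 3, −0.276 on the log2 position and −0.167 to 0.00935 with each left out, and that with input unevenness was 0.143 without the 2 farthest and −0.178 to 0.266. The scan day difference was −0.0358 to 0.00751. Some named regions were higher in carcinomas under loess and normexp: chr19:53037131-53037562 by 0.0586 and 0.203, chr10:92058976-92059339 by 0.0726 and 0.289, chr7:11242587-11242918 by 0.0210 and 0.461, chr16:9580141-9580519 by 0.0694 and 0.143, chr20:12463384-12464059 by 0.301 and 0.346, and chr20:9133870-9134222 by 0.268 and 0.0419. Under normexp alone this held for chr12:34362720-34363079 (0.0521), chr4:172723127-172723713 (0.0761), chr1:135862510-135862899 (0.0119) and chr3:160558006-160558461 (0.125). The cause of these changes was not tested. The 4 normal glands limit all comparisons.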
